A study of Oryza sativa with 4 samples.

Results

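The genes described here encode Rubisco and enzymes of the Calvin cycle in rice leaves. They were chosen by locus identifier and function, with earlier results of these data known but no measured value in the rule, and make up 10 of the 37869 loci (23 of 44553 transcript sequences) of the deposited gene table. They comprise 4 loci for the Rubisco small subunit on chromosome 12 (Os12t0274700, which the study calls RbcS1, Os12t0291100, Os12t0291400 and Os12t0292400), Rubisco activase (Os11t0707000, chromosome 11), plastid glyceraldehyde-3-phosphate dehydrogenase (GAPDH) subunits A (Os04t0459500, chromosome 4) and B (Os03t0129300, chromosome 3), plastid fructose-1,6-bisphosphatase (FBPase, Os03t0267300, chromosome 3), sedoheptulose-1,7-bisphosphatase (SBPase, Os04t0234600, chromosome 4) and phosphoribulokinase (PRK, Os02t0698000, chromosome 2). The descriptions in the table give no subunit letter for GAPDH, so A and B are working names. No sequences are printed, because no genome or sequence table was used here.

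Rubisco fixes CO2 onto ribulose bisphosphate in the chloroplast stroma. The holoenzyme joins large subunits, encoded in the plastid genome, with small subunits, which a family of nuclear genes encodes and which are imported into the plastid. Rubisco activase frees the catalytic sites of tightly bound sugar phosphates. The product of fixation is reduced to triose phosphate by phosphoglycerate kinase and the plastid GAPDH, and the remaining enzymes regenerate the acceptor: FBPase and SBPase remove phosphate from sugar bisphosphates and PRK makes ribulose bisphosphate. In well-watered leaves transcripts of these nuclear genes are among the most abundant messenger RNAs.

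RNA came from leaves of wild type plants (Oryza sativa, ecotype given as Illmi) at an age of 5 weeks. A well-watered control library (C) was compared with libraries of plants left without water for 1, 2 and 3 d, with 1 library per condition, each made from the pooled leaves of 10 plants growing in 4 pots. Leaves for the control were collected before water was withheld, so drought and the day of sampling cannot be told apart, and no difference below has a replicate library. The libraries held 56727328 (C), 52626188 (1 d), 60322263 (2 d) and 56909968 (3 d) reads mapped to genes. Levels are given as reads scaled to these totals (CPM), changes as log2 ratios of CPM with the exact 95% interval of the 2 counts, and a locus is said to rise or fall where the ratio reaches 2-fold (log2 of 1 or −1). These intervals cover counting error only.

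After 1 d without water 9 of the 10 loci differed from the control by at most 0.25 on the log2 scale and activase had decreased by 0.76, and all 10 then dropped over the following 2 days. At 1 d none had fallen 2-fold, at 2 d 9 of 10 had, and at 3 d all 10 had, while none rose on any day. Across all loci with at least 10 reads, 4.53% fell at least 2-fold at 1 d, 35% at 2 d and 47.4% at 3 d, and 5.71%, 19.8% and 20.8% rose. TMM and DESeq2 scaling, which set a factor per library so that most genes do not move, put falls and rises of all loci at 34.6% and 30.7% (TMM) or 32.3% and 33.0% (DESeq2) at 3 d, and at 27.4% and 25.2% or 26.7% and 25.8% at 2 d. The median log2 ratio of the 10 loci was −0.09 at 1 d, −2.48 at 2 d and −5.98 at 3 d, against 0.03, −0.41 and −0.86 for all loci. Relative to all loci the members therefore stood at −0.12, −2.07 and −5.12, a difference that does not depend on the scaling of the libraries, since scaling shifts all loci of a library alike. At 3 d all 10 members had fallen at least 16-fold, as had 8.86% of all loci. The least affected member, SBPase, still had a lower ratio than all but 7.11% of loci, and for GAPDH A, the most affected, 0.197% of loci were lower. In bulk leaf RNA, fewer cells of a type and less RNA per cell cannot be told apart.

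**Figure D1:**
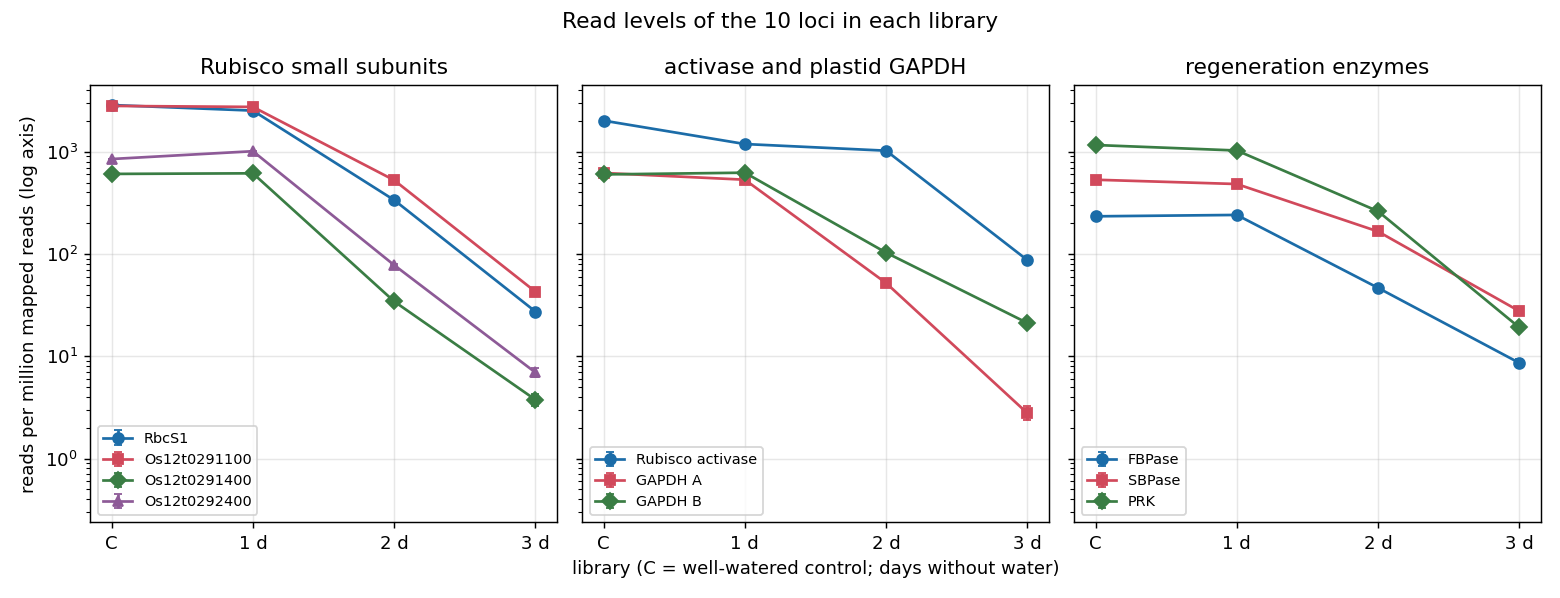
CPM (log axis) of the 10 loci in the control library (C) and after 1, 2 and 3 d without water, in panels by role, with 1 library per point and bars for the exact 95% counting interval. The lines run nearly level from C to 1 d except for activase, and by 3 d every locus lies between 2.78 and 87.1 CPM, below its own level in each earlier library.

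The small subunit genes supplied most of the reads of the set in the control and at 1 d. RbcS1, which the study also followed as a drought marker by quantitative PCR, stood at 2861 CPM in the control, 2523 at 1 d, 337 at 2 d and 27.4 at 3 d. Its reads dropped from 162294 in the control to 1557 at 3 d, a log2 ratio of −6.71 (−6.78 to −6.64), or 105-fold lower. By number of reads, with no correction for length, RbcS1 was the 10th most read locus of the control and the 6294th at 3 d.

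Os12t0291100 was, by reads summed over the sequences of a locus, as abundant as RbcS1 in well-watered leaves and fell least within the family. It measured 2804 CPM in C, 2743 at 1 d, 527 at 2 d and 42.8 at 3 d, a log2 ratio at 3 d of −6.03 (−6.09 to −5.98). The less abundant Os12t0291400 had 607, 615, 34.4 and 3.76 CPM in the same order. It had already dropped 17.6-fold at 2 d, the deepest 2 d fall of the 10 members, and reached a log2 ratio of −7.33 (−7.53 to −7.14) at 3 d, when 214 reads were left of 34414.

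Os12t0292400 was the only small subunit locus above the control at 1 d by more than counting error, though far short of 2-fold. Its levels were 849, 1011, 77.9 and 6.94 CPM, with log2 ratios of 0.25 (0.24 to 0.27) at 1 d, −3.45 at 2 d and −6.93 (−7.08 to −6.79) at 3 d. All 4 small subunit loci together gave 0.712% of the mapped reads in C, 0.689% at 1 d, 0.0976% at 2 d and 0.00808% at 3 d, so their summed level was 88.1-fold lower at 3 d than in the control.

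The 4 loci did not decline in proportion. Between the highest and the lowest of them the spread of CPM was 4.72-fold in the control, 4.46-fold at 1 d, 15.3-fold at 2 d and 11.4-fold at 3 d. Os12t0291100 made up 39.4% (39.2 to 39.5) of small subunit reads in C, 39.8% at 1 d, 54.0% at 2 d and 52.9% (51.5 to 54.4) at 3 d. RbcS1 went from 40.2% to 36.6%, 34.5% and 33.8%, Os12t0291400 from 8.52% to 8.92%, 3.52% and 4.65%, and Os12t0292400 from 11.9% to 14.7%, 7.98% and 8.59%. At 1 d the counting intervals of all 4 shares no longer overlapped those of the control. The share of RbcS1 changed most from C to 1 d, and the shares of the other loci changed most between 1 and 2 d. From 2 to 3 d the loci fell by similar factors, with log2 ratios of −3.62 for both RbcS1 and Os12t0291100, −3.19 for Os12t0291400 and −3.49 for Os12t0292400. Small subunit genes are close in sequence and the rule by which the authors placed reads that fit several copies is not given in the sources used here, so the split among copies is uncertain, and their sum is too if such reads were counted more than once or dropped.

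**Figure D2:**
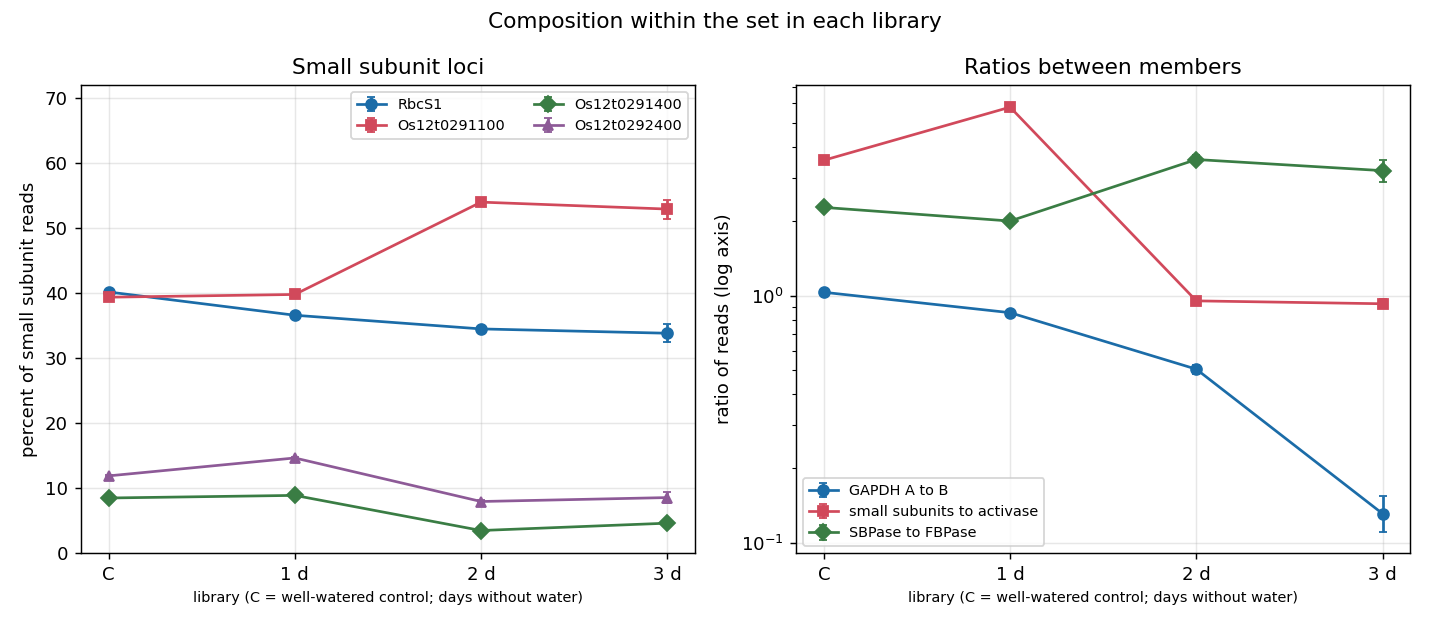
Left, percent of small subunit reads from each of the 4 loci, and right, ratios of reads between members (log axis), in C and at 1, 2 and 3 d, with exact 95% counting intervals from 1 library each. Os12t0291100 passes 50% of small subunit reads at 2 d, and the ratio of GAPDH A to B declines at each step to 0.131. The ratio of small subunits to activase drops from 5.80 at 1 d to 0.953 at 2 d. Reads are summed over the sequences of a locus, and the level of each ratio depends on that.

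The table also holds loci described as similar to the Rubisco large subunit, which took a different course. Large subunits are encoded in the plastid, so reads of plastid origin and reads of near-identical nuclear copies cannot be told apart. Among these 5 loci the most read, Os10t0356000, measured 203 CPM in C, 206 at 1 d, 52.6 at 2 d and 107 at 3 d. All 5 had more CPM at 3 d than at 2 d, by log2 ratios of 0.48 to 1.40. The 0.48 belongs to Os01t0899425, with only 16 reads at 2 d and 21 at 3 d, and no counting interval was computed for it. At 2 d all 5 had fallen at least 2-fold (median −1.95), but Os01t0899425, at −1.04 on 31 and 16 reads, did not pass 2-fold without scaling (−0.95) or with TMM (−0.70) or DESeq2 (−0.67), which left 4 of 5. At 3 d none was past 2-fold against the control (−0.92 to −0.55), and with TMM or DESeq2 scaling these 3 d ratios lay between −0.18 and 0.33. The ratio of small subunit to large subunit-like reads was 14.5 in C, 13.8 at 1 d, 7.26 at 2 d and 0.309 (0.299 to 0.319) at 3 d.

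**Figure D3:**
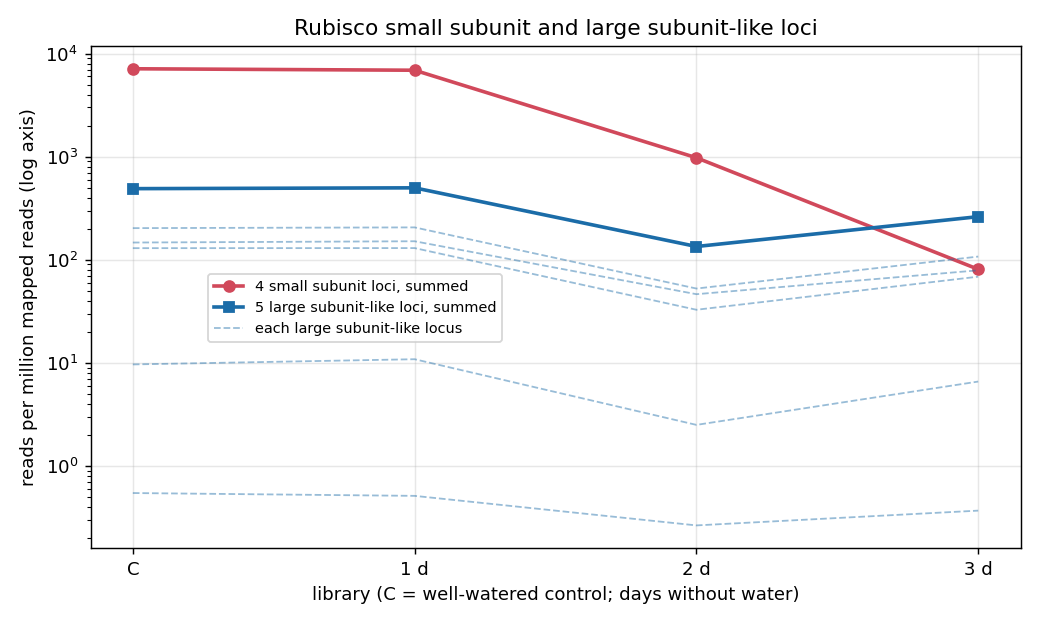
CPM (log axis) of the 4 small subunit loci summed, the 5 large subunit-like loci summed, and each large subunit-like locus (dashed), in C and at 1, 2 and 3 d, 1 library each. The small subunit sum drops at both later steps, from 6891 CPM at 1 d to 976 and 80.8, whereas the large subunit-like sum is 498, 134 and 262 CPM at the same days.

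A further pair of loci is described as Rubisco. Both, and the large subunit-like loci, were singled out after their values were seen. Os02t0152400, described only as a Rubisco fragment, had 216, 179, 297 and 165 reads, with a log2 ratio of −0.39 at 3 d, and so had not fallen 2-fold. Os12t0291200, described as a small chain, had at most 1 read in any library. This is under the floor of 3 reads used here for printing a ratio, so none is given.

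Rubisco activase had the largest decrease of the members at 1 d and the smallest change from 1 to 2 d. It stood at 2014 CPM in C, 1189 at 1 d, 1024 at 2 d and 87.1 at 3 d. The log2 ratio was −0.76 (−0.78 to −0.75) at 1 d, lower than in all but 6.93% of loci, and −0.98 (−0.99 to −0.96) at 2 d, just short of the 2-fold threshold. The 2 d value passed that threshold, at −1.04, when the reads of the members and of the photosystem and light-harvesting genes were left out of the totals, and came to −0.63 with TMM and −0.60 with DESeq2 scaling. From 1 to 2 d, when every other member fell at least 2.91-fold, activase had a log2 ratio of −0.22, against a median of −0.42 for all loci. The sign of this ratio depends on the scaling, since it was −0.02 without scaling, 0.14 with TMM and 0.17 with DESeq2. From 2 to 3 d it fell by 3.55 on the log2 scale, close to the small subunits, and ended 23.1-fold below the control.

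The balance between small subunit and activase reads, which no scaling alters, changed as well. Small subunit reads per activase read were 3.53 in C, 5.80 at 1 d, 0.953 at 2 d and 0.928 (0.891 to 0.966) at 3 d. The main drop of this ratio therefore lay between 1 and 2 d. Its values do rest on summing 4 sequences for activase and 1 to 3 per small subunit locus. Counting only the most read sequence, Os12t0291100 alone held 26509 reads at 2 d and 1953 at 3 d, against 22204 and 1768 for activase. On that count the small subunits stayed above activase. A second locus described as an activase, Os04t0658300, singled out after its values were seen and with 3547 reads in the control, showed no early decrease, with log2 ratios of −0.01 at 1 d, −1.44 at 2 d and −3.61 at 3 d.

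The plastid GAPDH subunits, which together form the enzyme that reduces bisphosphoglycerate with NADPH, started at like summed read numbers and diverged. By the most read sequence alone they did not start alike, at 17651 reads for A and 25762 for B in C. GAPDH A had 619 CPM in C, 533 at 1 d, 52.0 at 2 d and 2.78 at 3 d. Its log2 ratio of −7.80 (−8.04 to −7.58) at 3 d, 223-fold lower, was the largest fall among the members, and 158 reads were left of 35136. GAPDH B had 599.7, 624, 103 and 21.2 CPM, and ended at −4.83 (−4.91 to −4.74), 28.3-fold lower. Reads of A per read of B were 1.03 (1.02 to 1.05) in C, 0.854 at 1 d, 0.504 at 2 d and 0.131 (0.110 to 0.155) at 3 d, with no overlap of the counting intervals between any of the 4 libraries. The last step separated them most, with A falling 18.7-fold and B 4.87-fold from 2 to 3 d.

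Among the 3 members that regenerate the acceptor, PRK fell furthest. It measured 1163 CPM in C, 1028 at 1 d, 262 at 2 d and 19.1 at 3 d, with log2 ratios of −0.18, −2.15 and −5.93 (−6.01 to −5.84). From 2 to 3 d PRK fell 13.7-fold, more than any member but GAPDH A.

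Both bisphosphatases, which act on neighbouring sugar phosphates of the cycle, were among the less reduced members. FBPase had 234, 241, 46.6 and 8.61 CPM and a 3 d log2 ratio of −4.76 (−4.89 to −4.63). SBPase had 532, 483, 166 and 27.6 CPM and the smallest fall of the set, −4.27 (−4.34 to −4.19), or 19.3-fold. SBPase reads per FBPase read were 2.28 in C, 2.01 at 1 d, 3.56 at 2 d and 3.21 at 3 d, so SBPase had fallen less than FBPase by 2 d.

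Step by step, the set fell at both later intervals. From C to 1 d the log2 ratios ran from −0.76 (activase) to 0.25 (Os12t0292400). From 1 to 2 d the median was −2.49 and 9 of 10 members fell, against 36% of all loci (20.3% rose), and from 2 to 3 d it was −3.52 and 10 of 10 fell, against 30.9% of all loci (11.3% rose). With scaling to the library totals, the second of these falls was the larger for 7 of the 10 loci on the log2 scale. For FBPase the counting intervals overlapped, at −2.37 (−2.43 to −2.31) and −2.44 (−2.58 to −2.30). Another scaling shifts each step by its own amount. Loci with similar falls at both steps, such as FBPase and Os12t0292400, can therefore change sides. Os12t0291400, Os12t0292400 and GAPDH B fell more from 1 to 2 d. Of its whole log2 fall at 3 d, activase had completed 21.6% by 2 d, PRK 36.3%, SBPase 39.4%, Os12t0291100 40.0%, GAPDH A 45.8%, RbcS1 46.0%, FBPase 48.8%, Os12t0292400 49.7%, GAPDH B 52.7% and Os12t0291400 56.5%.

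**Figure D4:**
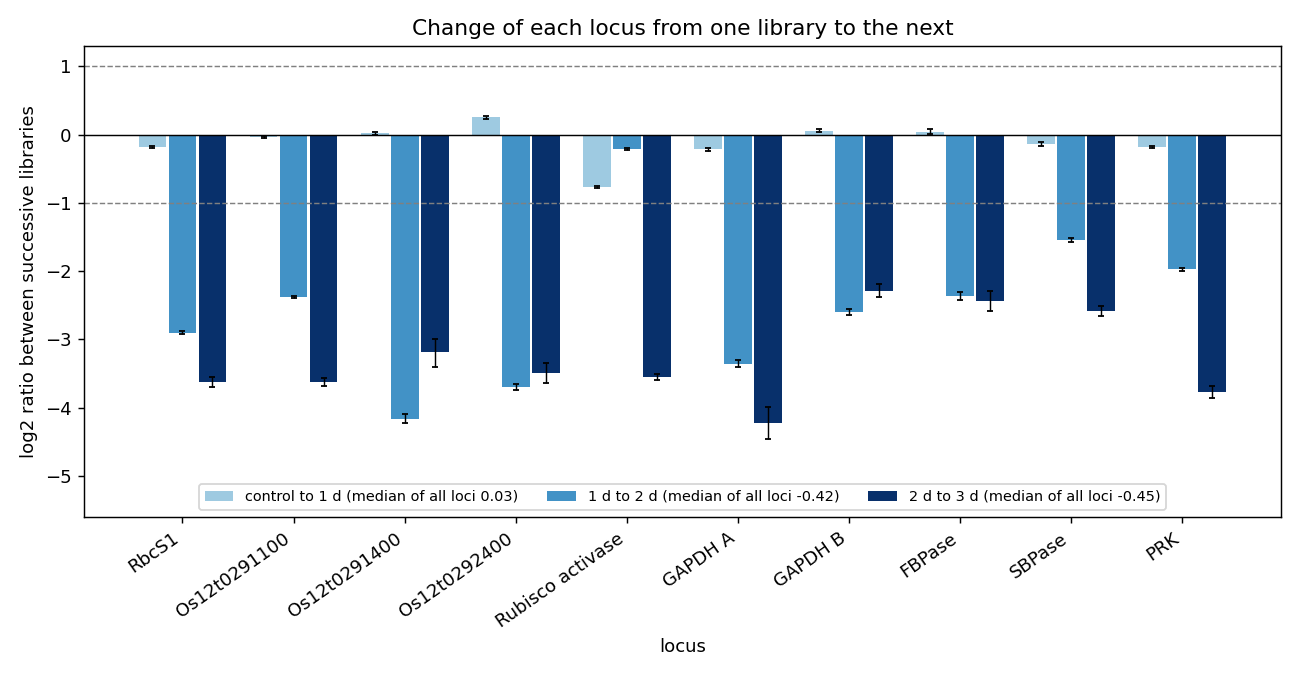
Log2 ratio between successive libraries for each of the 10 loci (control to 1 d, 1 to 2 d, 2 to 3 d), with exact 95% counting intervals from 1 library each and dashed lines at 2-fold. No bar of the first step reaches 2-fold, and only activase lacks a 2-fold fall from 1 to 2 d.

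Compared per length, as CPM per 1000 bases of the longest sequence of a locus, introns included, the order of the members changed with drought. In the control the order was Os12t0291100 (2784), RbcS1 (2639), activase (659), Os12t0291400 (572), PRK (483), Os12t0292400 (405), GAPDH A (335), SBPase (200.3), GAPDH B (188) and FBPase (137). At 3 d Os12t0291100 was still first at 42.5, followed by activase (28.5), RbcS1 (25.2), SBPase (10.4), PRK (7.95), GAPDH B (6.64), FBPase (5.04), Os12t0291400 (3.55), Os12t0292400 (3.31) and GAPDH A (1.5). By these summed reads SBPase moved from 8th to 4th place, and Os12t0291400 from 4th to 8th. No neighbours in the control order had overlapping counting intervals, whereas at 3 d those of Os12t0291400 and Os12t0292400 overlapped. The introns counted in these lengths differ between loci, which limits comparison between genes. The order also rests on summing, since loci have 1 to 4 sequences. By the most read sequence in C, activase (40743 reads on 3047 bases) ranked below Os12t0291400 (34414 on 1060). At 3 d activase (1768 reads) ranked below RbcS1 (768 on 1084 bases) in the same way.

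Together the 10 loci accounted for 1.23% of all mapped reads in C, 1.10% at 1 d, 0.263% at 2 d and 0.0247% at 3 d. In the control every member lay among the 1000 most read loci, at 2 d 4 did and at 3 d none did. Small subunits made up 58.0% of the reads of the set in C, 62.7% at 1 d, 37.1% at 2 d and 32.7% at 3 d. All members but Os12t0291400 and Os12t0292400 have more than 1 transcript sequence in the table, and it is not given whether a read that fits several was counted for each. With only the most read sequence of each locus, the share of the set was 0.744% in C and 0.0128% at 3 d. The small subunits then held 0.521% and 0.00585% of all reads, a larger part of the set than by summed reads. The log2 ratios of sequences of the same locus differed by at most 0.35 on any day.

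The remaining enzymes of the cycle were taken from the descriptions in the table, which gave 41 more loci, 39 of them measured, the 5 large subunit-like loci among them. At 1 d none fell or rose, and at 2 d 18 fell and 8 rose. At 3 d 16 of 39 (41.0%) fell and 9 rose, with a median of −0.64, close to all loci, of which 47.4% fell and 20.8% rose with a median of −0.86. With TMM or DESeq2 scaling 13 fell, 12 rose and the median changed sign to 0.10 and 0.24. All 5 measured loci whose descriptions name the chloroplast fell (median −2.44), 4 of 5 with TMM or DESeq2 scaling. Of the 12 loci described as cytosolic or cytoplasmic, 3 fell and 4 rose (median 0.17). With TMM or DESeq2 scaling 1 fell and 6 rose. Of 17 loci with neither word 8 fell and 5 rose (8 and 6 with TMM or DESeq2 scaling).

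The 3 most read of these other loci all fell. Fructose-bisphosphate aldolase (Os11t0171300, chloroplast precursor), which joins triose phosphates into hexose bisphosphate, had 60234 reads in C, 37098 at 1 d, 22783 at 2 d and 3284 at 3 d, a log2 ratio of −4.20 at 3 d. Phosphoglycerate kinase Os05t0496200, whose description names no compartment, went from 43914 to 36584, 4629 and 845 reads (−5.70). Transketolase Os06t0133800, which passes 2-carbon units between sugar phosphates, had 35553, 31932, 8344 and 8448 reads. Its fall was complete at 2 d (−2.18) and did not go on at 3 d (−2.08), in contrast to every member.

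Of the 9 loci that rose, 6 had fewer than 1000 reads in the control. A phosphoglycerate kinase described as cytosolic (Os06t0668200) had 278, 328, 5718 and 7916 reads, a log2 ratio of 4.83 (4.65 to 5.00) at 3 d. A cytoplasmic aldolase (Os08t0120600) went from 317 reads to 273, 2773 and 3984 (3.65), and a locus with a transketolase C-terminal domain (Os04t0266900) from 332 to 292, 1314 and 3275 (3.30). The most read was a GAPDH (Os08t0126300) with 30421, 28858, 69134 and 83632 reads (1.45), which rose while both plastid subunits fell.

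The other 5 risers ranged from 1.02 to 4.20 at 3 d: the cytosolic GAPDH loci Os02t0171100 and Os02t0601300, the ribose-5-phosphate isomerase Os04t0306400, the bisphosphatase-domain locus Os05t0438600 and the phosphoglycerate kinase Os01t0800266, which had 8 reads in C and 147 at 3 d. The word in the description was not a full guide to the direction. Aldolase Os06t0608700, described as a cytoplasmic isozyme and singled out after its values were seen, fell from 16282 to 187 reads (−6.45), as deeply as the small subunits.

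**Figure D5:**
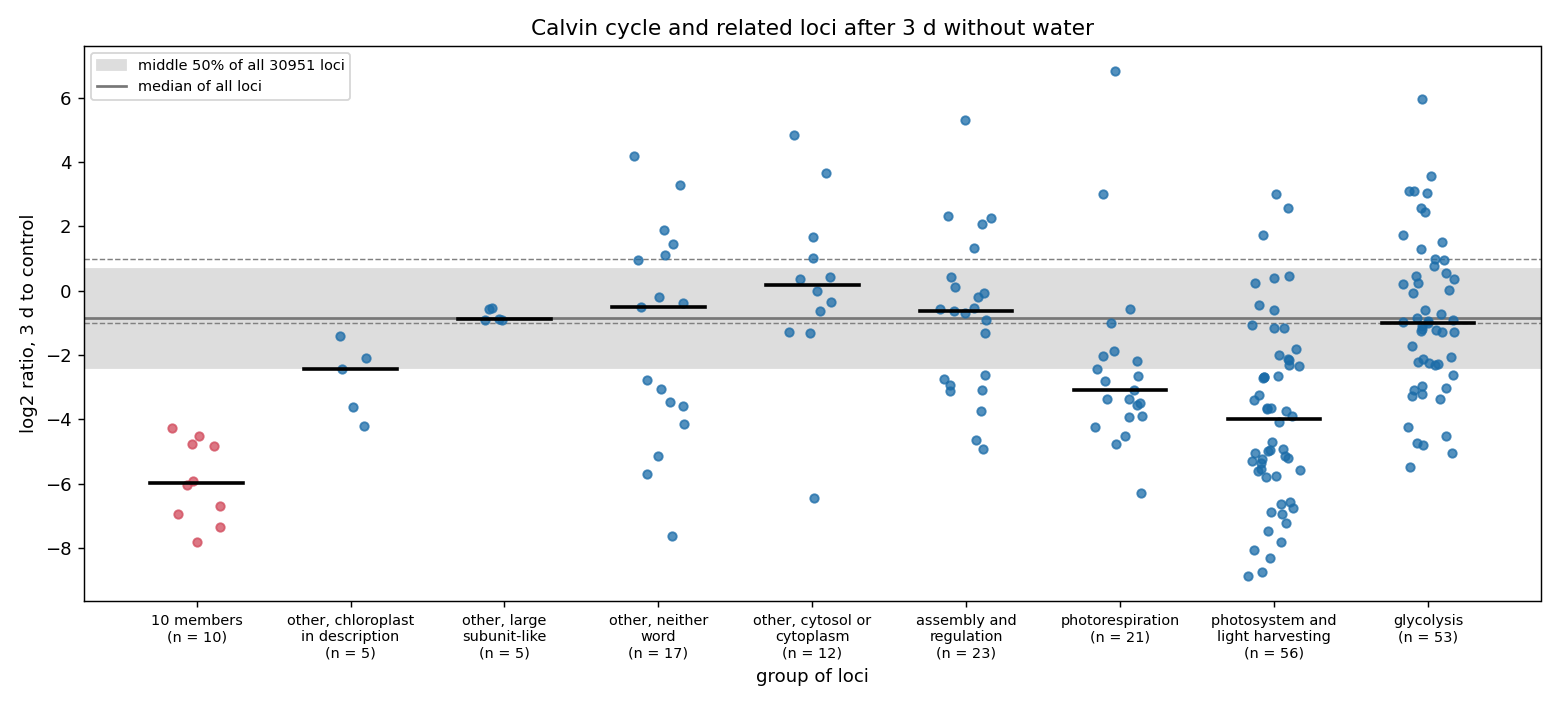
Log2 ratio of 3 d to control for each measured locus (points) of the 10 members and of related gene lists, with list medians as black bars, dashed lines at 2-fold, and the median and middle 50% of all 30951 loci in grey. All 10 members lie at or below −4.27, the loci described as cytosolic or cytoplasmic spread on both sides of 0, and the 5 large subunit-like loci lie between −0.92 and −0.55.

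Genes for assembly and regulation of Rubisco and the cycle, taken the same way, gave 23 measured loci. Of these, 9 (39.1%) fell and 5 rose at 3 d, against 47.4% and 20.8% of all loci. The median was −0.63, turning to 0.11 with TMM and 0.25 with DESeq2 scaling. With either of these scalings 8 fell and 6 rose. Of the 13 loci that are not carbonic anhydrases, 7 (53.8%) fell and none rose (median −1.31), and 6 fell with TMM or DESeq2 scaling. This split was not planned, and it sets aside every locus that rose. The 5 that rose are all described as carbonic anhydrases, enzymes that interconvert CO2 and bicarbonate, and each had at most 57 reads in the control. For Os08t0423500, with 2 reads in C and 5 at 3 d, the counting interval of the log2 ratio ran from −1.29 to 4.71. The most read carbonic anhydrase, Os01t0639900 (chloroplast precursor), had 98302, 84976, 22527 and 12829 reads and fell (−2.94). CP12 (Os01t0303000), a small protein that binds GAPDH and PRK, was among the least reduced abundant loci, with 99125, 98234, 71969 and 39973 reads and a log2 ratio of −1.31, which came to −0.57 with TMM and −0.43 with DESeq2 scaling and so was no longer past 2-fold. A chaperonin 60 locus (Os06t0114000), of the kind that folds Rubisco subunits, had 32649, 23386, 16617 and 5331 reads (−2.62).

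Photorespiration, the pathway that recycles the product of Rubisco's oxygenase reaction, gave 21 measured loci, of which 17 fell and 2 rose at 3 d (median −3.10). The shares over all loci were 47.4% falling and 20.8% rising. Glycolate oxidase Os03t0786100 had 82441, 75767, 16387 and 8082 reads (−3.36) and a serine hydroxymethyltransferase (Os03t0738400) 82329, 63915, 28784 and 7030 (−3.55). Serine-glyoxylate aminotransferase Os08t0502700 had 88133, 104326, 12432 and 10338 reads (−3.10). Its level barely moved from 2 to 3 d, unlike that of the members. The 2 that rose were an alanine-glyoxylate aminotransferase-like locus (Os05t0475400), with 140, 364, 19701 and 15915 reads (6.82), and Os04t0623500, described as a hydroxy-acid oxidase, with 463, 391, 1778 and 3693 reads (2.99).

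In the photosystem and light-harvesting list, whose products supply the cycle with ATP and NADPH, 48 of 56 measured loci fell and 3 rose at 3 d (median −3.98). Of all loci 47.4% fell and 20.8% rose. The list also holds loci described as proteins that the plastid genome encodes. Among them photosystem II protein D1 (Os04t0473150) rose (1.72), photosystem I subunit VII (Os09t0485201) stood at 0.38 and photosystem II protein Z (Os12t0504050) at −1.06. The others that rose were Os04t0690800, described as a 22 kDa protein of photosystem II (3.01), and Os07t0147550, similar to a photosystem II 10 kDa polypeptide (2.57). The list as a whole took 4.12% of reads in C, 4.17% at 1 d, 0.898% at 2 d and 0.288% at 3 d. The most read, Os01t0600900 (chlorophyll a-b binding protein 2), had 254312, 232536, 40363 and 6853 reads (−5.22), and the next, Os01t0501800 and Os09t0346500, reached −5.58 and −3.90. Among glycolytic loci 27 of 53 fell and 10 rose (median −1.01), close to all loci. Of the 3 most read, the phosphoglycerate mutase-domain locus Os01t0237100 fell (−5.49), whereas Os01t0817700 and the enolase Os10t0167300 had ratios of −0.62 and 0.55, the last of which passed 2-fold with TMM (1.29) and DESeq2 (1.43) scaling.

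The leaf label was checked with genes of other tissues, beside the abundance of the members in the control. Dip1 (Os02t0669100), a dehydrin used as a drought marker, took 0.00499% of reads in C, 0.00914% at 1 d, 0.424% at 2 d and 0.418% at 3 d. All 6 measured dehydrin loci rose at 3 d, as did 20.8% of all loci. The most read other dehydrins, Os11t0454000 and Os11t0454200, had ratios of 8.25 and 8.55. Descriptions with seed storage protein words summed to 0.0205% to 0.0349% of reads and those with the word pollen to 0.154% to 0.291%, and the 3 root-specific loci to at most 31 reads in a library. Their part in the fall of the members was not tested.

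Loci whose 3 ratios lay nearest to the median course of the members were sought among 7986 loci with at least 1000 control reads and a description other than hypothetical, unknown or a clone name. The 5 nearest, by Euclidean distance over the 3 log2 ratios, were Os02t0706400, described as similar to RADIALIS (0.25), Os07t0562700, a type III chlorophyll a/b-binding protein (0.26), Os08t0553800, an NAD(P)-binding domain protein (0.32), Os02t0615500, a protein kinase (0.33), and Os04t0164300, a ribosomal protein S12/S23 domain protein (0.33). Among the members themselves Os12t0291100 lay 0.10 and PRK 0.34 from that course, while activase (2.19), Os12t0291400 (2.15) and GAPDH A (2.13) lay furthest. The chlorophyll a/b-binding locus had 70478, 66681, 14414 and 1297 reads.

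The most read members had the most reads per base of their longest sequence in the control, with reads summed over the transcripts of a locus. These densities were 158 for Os12t0291100 and 149.7 for RbcS1, against 2.42 and 1.44 at 3 d. Duplicate reads had been removed by the authors before mapping, and the effect of that step at such different densities was not tested.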

How the data were processed

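Leaf RNA of rice was sequenced as strand-specific, single-end Illumina libraries. The authors trimmed adaptors and bases of low quality, removed duplicates with FastUniq and mapped reads with clc_ref_assemble to the annotated gene sequences of RAP-DB (IRGSP-1.0). The deposited table gives read counts per transcript sequence as whole numbers, without normalization, and a sequence length with introns. Its 4 normalized columns and 3 columns of log2 ratios are the authors' own comparisons and were not used, nor were the noncoding RNA tables. Whether strand was used in counting, and how reads that fit several sequences were placed, is not given in the sources used here.

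Counts were summed over the transcripts of a locus and divided by the column sum (CPM). With 1 library per condition no test was made. Log2 ratios carry exact Clopper-Pearson 95% intervals, and shares likewise, for counting error only. Loci compared had at least 10 reads over the 4 libraries and reads in both libraries. No ratio is printed here where both libraries held 3 reads or fewer. Such pairs still entered the medians and percentages if the locus met the minimum of reads. Gene lists were built from words in the descriptions, leaving out methyltransferases and 2-phosphoglycerate kinase from the Calvin cycle list. From each list the 3 loci with most control reads were named, with every locus that rose at 3 d in the Calvin cycle and photorespiration lists if it had at least 100 reads. The members and lists were chosen with earlier results of these data known. Promoters and sequences were not analysed here. The calculation was tested on simulated data.

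Alternatives were no scaling, edgeR (4.0.16) TMM factors, DESeq2 (1.42.0) median of ratios, totals without members and photosystem genes, the most read transcript, 1 added read, other read minimums and other thresholds. Software was Python 3.11.15 with scipy 1.17.1 and R 4.3.3.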

Additional observations from a re-analysis of the deposited data

How the results depend on the processing

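No paired analysis was possible because there was 1 library per condition, and for the same reason no replicate could be left out. Every one of the 10 loci stayed past 2-fold at 3 d under every scaling, with the most read transcript and with 1 read added, the smallest fall being −3.39 (SBPase, DESeq2). At 3 d the median of the 10 loci was −5.24 with TMM, −5.10 with DESeq2, −6.06 without the members and photosystem genes in the totals and −6.06 with the most read transcript. At 2 d it was −2.39 without scaling, −2.13 with TMM, −2.10 with DESeq2 and −2.54 with the reduced totals, and at 1 d −0.19 without scaling. For 1 to 2 d it was −2.29 without scaling, −2.14 with TMM, −2.10 with DESeq2 and −2.55 with the reduced totals, and for 2 to 3 d −3.13 with TMM and −3.02 with DESeq2. Counting a fall wherever the counting interval lay below no change gave 6 of 10 at 1 d, and the interval lay above no change for 3.

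The share of reads in the set was 0.744% in C and 0.0128% at 3 d with the most read transcript, and 1.28% in C without photosystem reads. For the small subunits it was 0.521% and 0.00585% with the most read transcript and 0.743% in C without photosystem reads. TMM and DESeq2 moved the median of all loci at 3 d from −0.86 to −0.12 and 0.02, and falls as a part of all calls from 69.5% to 52.9% and 49.5%, by shifting all ratios of a library alike. At 2 d falls made up 63.8% of calls, and 52.1% and 50.9% with these scalings. At 3 d rises in the photosystem list numbered 5 with TMM and 6 with DESeq2, and in the glycolysis list 16 and 18. With at least 100 reads, 3 loci rose in the assembly and regulation list. The 2 d ratios of the large subunit-like loci under other scalings were added after seeing the data. Each member had at least 158 reads in every library. With no replicates, no value here measures how far plants differ.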

Other observations

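The glycine decarboxylase complex, which releases CO2 from glycine in mitochondria during photorespiration, was represented by loci with unlike ratios at 3 d. These loci were singled out after their values were seen. The most read, the P subunit locus Os06t0611900, had 72688 reads in C, 75456 at 1 d, 18593 at 2 d and 3212 at 3 d, a log2 ratio of −4.50 at 3 d. The T protein locus Os04t0623800 had 22277, 19754, 3750 and 816 reads (−4.78), and the H protein locus Os10t0516100 had 17079, 16298, 1230 and 220 (−6.28). These 3 ratios lie within the range of the Calvin cycle members. Of the less read loci, the ratios at 3 d were −3.90 for Os06t0667600 and −2.45 for Os02t0170100 (both H protein), and the L protein locus Os03t0662000, with 1180 reads in C and 592 at 3 d, stayed just short of 2-fold. Os02t0169700, an H protein locus with 19 reads in C and 1 at 3 d, was too thinly read to place.

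A fructose-bisphosphate aldolase with no compartment in its description, Os12t0169600, also singled out after its values were seen, held 12033, 11052, 2444 and 61 reads, and from 2 to 3 d it fell by 5.24 on the log2 scale, more than any member in that interval.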
